A study of Homo sapiens with 12 samples.

Results

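The 6 classical cadherin genes CDH1, CDH2, CDH3, CDH5, CDH6 and CDH11, together with CTNND1, which encodes the cadherin partner p120-catenin, were followed through the hematopoietic differentiation of human embryonic stem cells. These 7 genes were chosen by symbol, with no expression value in the rule, from 56593 distinct gene symbols. Earlier results of these data were known when the 7 genes were chosen. RNA-seq had been performed on 12 libraries of 4 populations, 3 libraries each, all derived from H1, an established human embryonic stem cell line. The populations were undifferentiated H1 cells, APLNR+ mesoderm cells collected on day 2, CD31+CD34+ hemogenic endothelial progenitors (HEPs) collected on day 5, and CD43+ hematopoietic progenitor cells (HPCs) collected on day 8. Differentiation was driven by activinA and BMP4 for the first 2 days and by VEGF and bFGF afterwards, in modified mTeSR1 medium without stromal cells. All libraries therefore share 1 cell line and 1 genetic background, and neither a gene edit nor an inhibitor separates the groups. The study's methods state independent experiments for its analyses in general, but neither they nor the labels say whether the 3 libraries of a population came from separate cultures, so the p-values measure the spread between these libraries, which may be technical.

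Classical cadherins are calcium-dependent adhesion receptors that bind cadherins of the neighbouring cell and, through their cytoplasmic tails, the catenins. Beta-catenin or its relative plakoglobin occupies the distal tail and connects it through alpha-catenin to actin, whereas p120-catenin occupies the juxtamembrane stretch and holds the cadherin at the cell surface. Epithelia typically carry E-cadherin (CDH1) or P-cadherin (CDH3), mesenchymal cells N-cadherin (CDH2) or OB-cadherin (CDH11), and endothelium VE-cadherin (CDH5), and the exchange of E-cadherin for N-cadherin when cells leave an epithelium is known as the cadherin switch.

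The values were FPKM, fragments scaled to transcript length and library total, so levels of different genes can be set side by side within a library. FPKM keeps no read totals and the absolute depth is unknown. Relative depth, read from the spacing of the lowest values, ran from 0.553 (CD31+CD34+ replicate 1) to 1.27 times that of CD43+ replicate 3, and replicate 1 was the shallowest library of each population. The genes of the sorted surface proteins followed the labels, with mean APLNR going from 0.528 to 383 FPKM at the APLNR+ stage, PECAM1 (CD31) from 0.0997 to 55.2 FPKM at the CD31+CD34+ stage and SPN (CD43) from 3.70 to 75.5 FPKM at the CD43+ stage. APLNR remained at 402 FPKM in CD31+CD34+ cells, and PTPRC, the gene of the pan-leukocyte antigen CD45, averaged 0.197 FPKM in CD43+ cells. None of the 7 genes was listed at 0 in any library.

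The 6 cadherins share the tail segment that p120-catenin is known to bind, and the bases that code for it are shown for each gene. Each run below holds 60 coding bases read 5′ to 3′ on the gene's strand (GENCODE 29, GRCh38), and the capitals mark the 15 bases that code for the same 5 residues in all 6 genes.
CDH1: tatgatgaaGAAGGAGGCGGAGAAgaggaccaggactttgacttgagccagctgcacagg
CDH2: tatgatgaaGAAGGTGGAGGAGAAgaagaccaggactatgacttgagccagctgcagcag
CDH3: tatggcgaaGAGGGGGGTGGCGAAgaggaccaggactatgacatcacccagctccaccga
CDH5: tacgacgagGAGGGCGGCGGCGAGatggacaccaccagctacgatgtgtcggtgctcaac
CDH6: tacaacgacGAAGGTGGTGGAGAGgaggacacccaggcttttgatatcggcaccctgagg
CDH11: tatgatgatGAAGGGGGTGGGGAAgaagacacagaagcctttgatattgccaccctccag
The CDH1 run lies in chr16:68828272-68829680 (plus strand), the CDH3 run in chr16:68695353-68695803 (plus strand) and the CDH2 run in chr18:27963495-27982976 (minus strand), each split by the intron between exons 14 and 15 of 16. In CDH5 (chr16:66402747-66402806, plus strand), CDH6 (chr5:31322910-31322969, plus strand) and CDH11 (chr16:64947948-64948007, minus strand) the run lies within the last exon. Against CDH1, CDH2 was identical at 53 of the 60 bases and CDH3 at 47, while CDH5 matched at 30 and CDH6 and CDH11 at 31 each. The first 3 are type I cadherins and the last 3 type II cadherins. In the RefSeq annotation CDH3 and CDH1 are neighbours on chromosome 16 with 0 protein-coding genes between them, and so are CDH11 and CDH5.

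Across differentiation the epithelial cadherins CDH1 and CDH3 declined, CDH2 peaked in APLNR+ mesoderm, CDH11 rose to a maximum in CD31+CD34+ HEPs, and CDH5 appeared at the HEP stage. A gene was called upregulated or downregulated at a limma adjusted p under 0.05 (Benjamini-Hochberg) and a minimum change of 2-fold in FPKM + 1, an offset that understates changes of low genes. From H1 to APLNR+ cells CDH2 and CDH11 were upregulated and CDH1 and CDH3 downregulated, that is 2 and 2 of the 7 members, where 8.3% of the 14840 genes tested were upregulated and 7.62% downregulated. From APLNR+ to CD31+CD34+ cells CDH5 and CDH11 were upregulated and CDH1 and CDH2 downregulated, against 12.5% and 17.1% of all genes. From CD31+CD34+ to CD43+ cells 0 members were upregulated and 5, all the cadherins but CDH6, were downregulated, against 5.58% and 8.79% of all genes. Between CD43+ and H1 cells CDH5 and CDH11 were higher and CDH1 and CDH3 lower, against 14.6% and 22.5% of all genes. The median log2 change of the 7 members was 0.53, -0.31 and -1.49 at the 3 consecutive steps, beside -0.12, -0.01 and 0.00 for all genes tested. Consecutive steps share the libraries of the middle population, and CDH6 passed the filter on low values only through its level in APLNR+ cells.

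**Figure D1:**
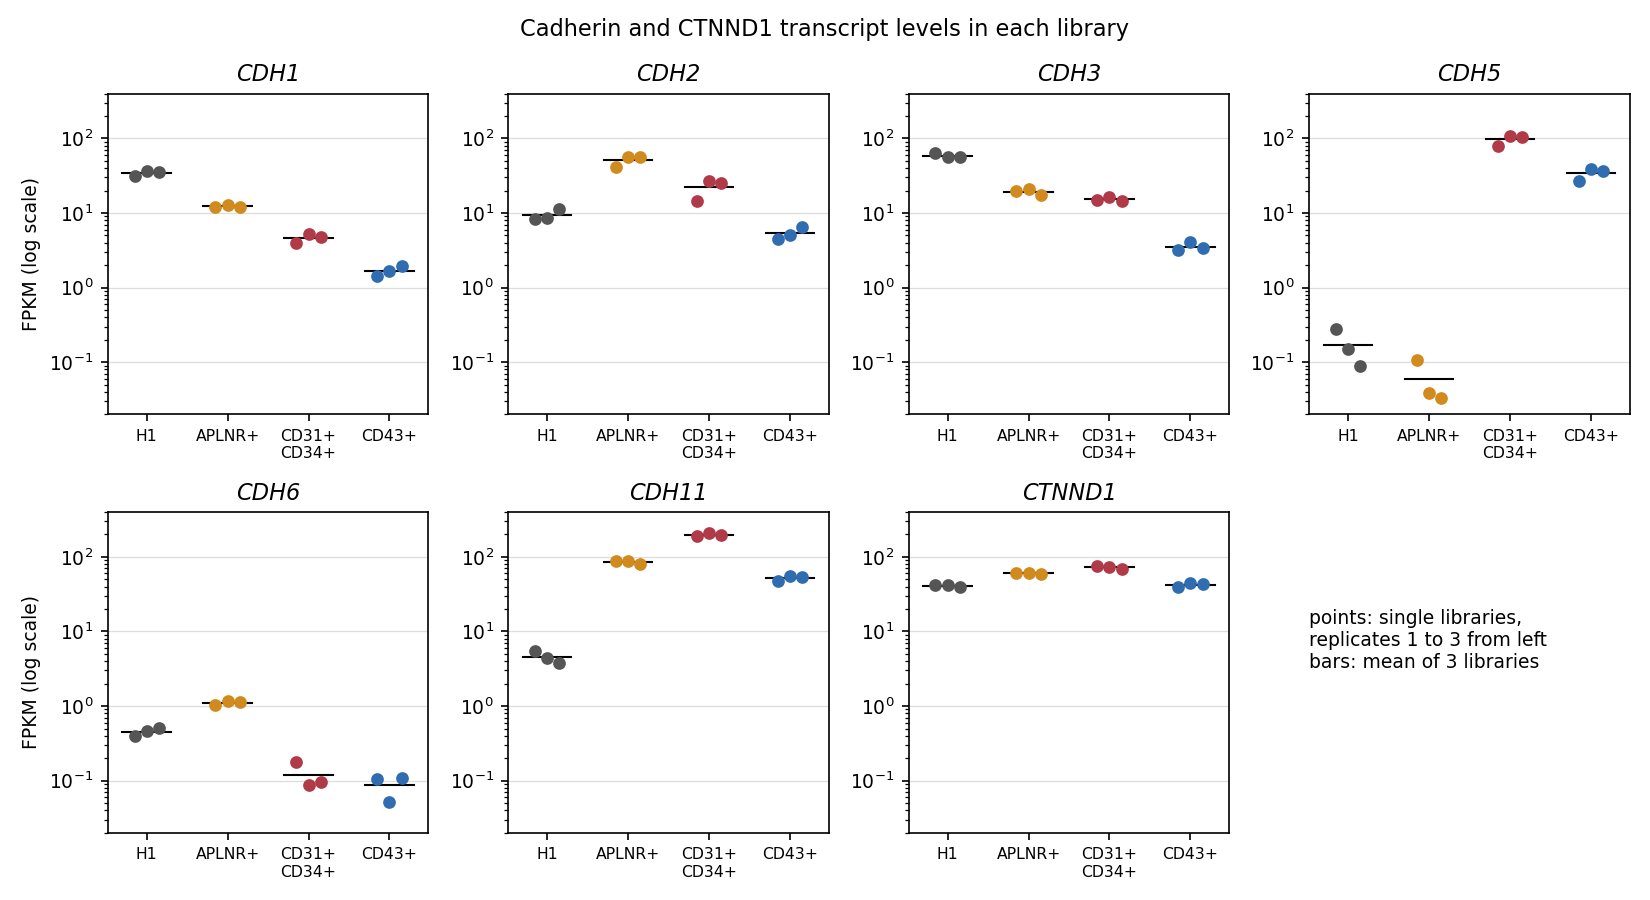
FPKM of each gene (log axis) in the 12 libraries, with a horizontal bar at the mean of the 3 libraries of a population. The means of CDH1 and CDH3 are lower at every later stage, CDH2 is highest in APLNR+ cells, CDH11 and CDH5 are highest in CD31+CD34+ cells, and CTNND1 stays between 39.3 and 76.6 FPKM.

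**Figure D2:**
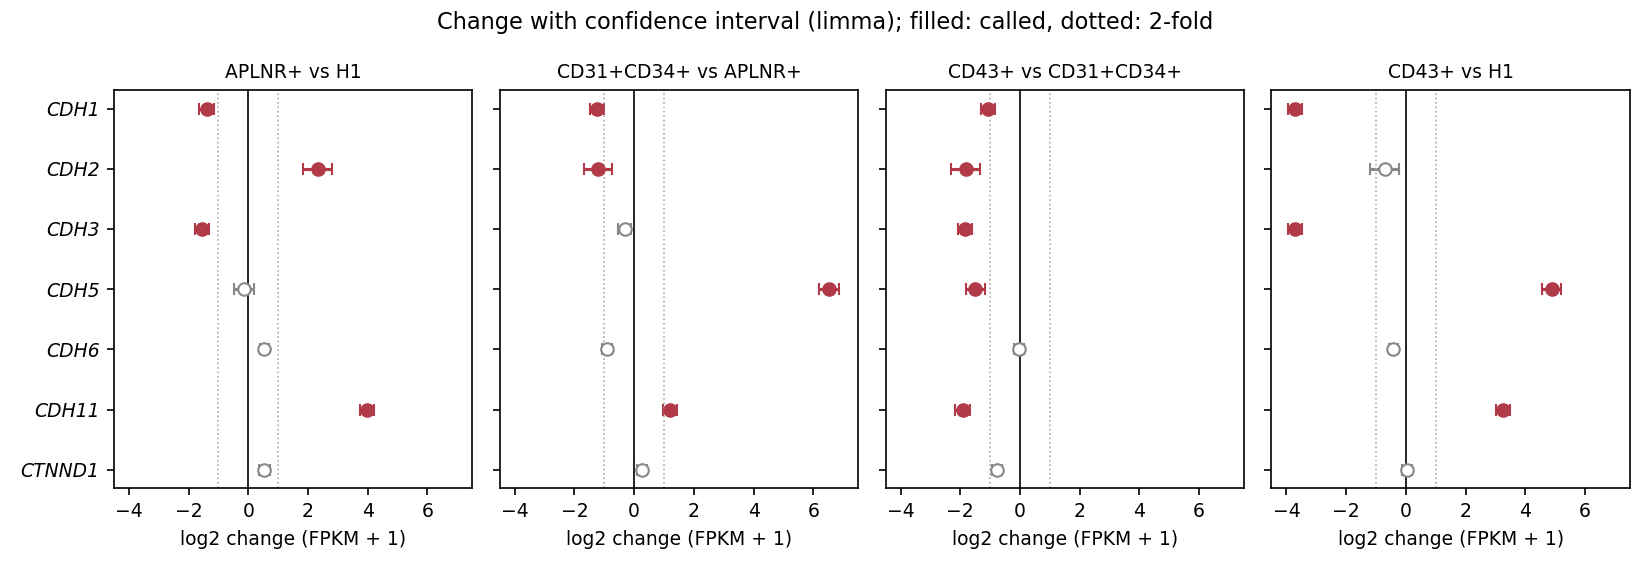
Change of each gene in log2(FPKM + 1) at the 4 comparisons, with the 95% interval from limma. Filled points are called, open points are not, and dotted lines mark a 2-fold change. At the step from CD31+CD34+ to CD43+ cells all filled points lie left of 0.

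CDH1, the E-cadherin of epithelia and pluripotent colonies, was expressed at 31.2, 36.8 and 35.0 FPKM in the H1 libraries (replicates 1 to 3) and at 12.1, 12.8 and 12.2 FPKM in APLNR+ cells. Its values were 3.96, 5.21 and 4.71 FPKM in CD31+CD34+ cells and 1.45, 1.68 and 1.92 FPKM in CD43+ cells. Each stage lay wholly below the one before it. The log2 changes were -1.40 ± 0.11, -1.25 ± 0.11 and -1.07 ± 0.11 (SE, limma adjusted p 3.94e-07, 6.4e-07 and 5.23e-06), nearly equal steps that added up to -3.72 between H1 cells and HPCs. In FPKM without the offset the HPC mean was 20.4-fold lower than the H1 mean. Without CD31+CD34+ replicate 2 the last of the log2 changes was -0.99 and fell short of the 2-fold minimum. In bulk RNA, fewer cells carrying a transcript and less transcript per cell cannot be told apart.

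CDH3, the P-cadherin gene next to CDH1, was the most highly expressed of the 6 cadherins in H1 cells, at 63.1, 56.6 and 56.0 FPKM. It measured 19.4, 21.2 and 17.3 FPKM in APLNR+ cells, 15.1, 16.3 and 14.4 FPKM in CD31+CD34+ cells and 3.16, 4.05 and 3.42 FPKM in CD43+ cells. Unlike the even descent of CDH1, CDH3 had a plateau between mesoderm and HEPs, although the libraries of these populations did not overlap. CDH3 was downregulated at the first step (-1.56 ± 0.10, limma adjusted p 1.08e-07) and at the last step (-1.85 ± 0.10, 3.13e-08), whereas the change of -0.31 ± 0.10 between them (0.0165) was under 2-fold. A second line carrying the CDH3 symbol held at most 1.45 FPKM in any library, and adding it to the first altered no call.

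Other epithelial genes were mixed at the first of these steps. Of 11 markers of surface epithelium and trophoblast, 8 were tested. From H1 to APLNR+ cells 3 of them were upregulated and 4 downregulated, against 8.3% and 7.62% of all genes. At the second step 0 were upregulated and 1 downregulated, against 12.5% and 17.1% of all genes. At the last step 0 were upregulated and 5 downregulated, against 5.58% and 8.79%. EPCAM, an epithelial adhesion gene, averaged 45.5, 15.1, 7.85 and 2.21 FPKM in the 4 populations in order, and the keratin gene KRT8 152, 462, 654 and 60.5 FPKM. The summed level of the list was 607 to 626 FPKM in H1, 1046 to 1170 in APLNR+, 1396 to 1577 in CD31+CD34+ and 219 to 278 in CD43+ libraries, with CGA and KRT5 both at 0 in CD43+ cells. Most of this sum was KRT8, KRT18 (295.5, 405, 619 and 153 FPKM on average) and KRT19 (75.9, 211, 170.5 and 28.8 FPKM). ESRP1 averaged 31.7, 9.44, 3.355 and 0.848 FPKM and GRHL2 13.4, 3.44, 2.24 and 0.8545 FPKM, lower at every later stage as EPCAM was. The summed level of 10 pluripotency markers was 2671 to 2783, 915 to 1008, 375 to 461 and 178 to 208 FPKM in the same order. The part of residual undifferentiated or epithelial cells in the CDH1 and CDH3 levels was not tested.

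CDH2, the N-cadherin of mesenchymal and neural cells, measured 8.39, 8.53 and 11.3 FPKM in the H1 libraries, then 41.3, 55.5 and 56.0 FPKM in mesoderm. Its levels were 14.3, 26.7 and 25.0 FPKM in CD31+CD34+ and 4.49, 5.07 and 6.52 FPKM in CD43+ cells. The populations did not overlap, and every HPC library lay below every H1 library, although the change of -0.71 ± 0.22 between them (limma adjusted p 0.0108) was under 2-fold. The increase to mesoderm was 2.32 ± 0.22 on the log2 scale (limma adjusted p 2.33e-06), followed by decreases of -1.21 ± 0.22 (0.000316) and -1.82 ± 0.22 (2.25e-05). CD31+CD34+ replicate 1, the shallowest library, was also the lowest of its population. Without it the decrease from mesoderm to HEPs was -0.94, under the 2-fold minimum.

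CDH11, the OB-cadherin of mesenchyme, was expressed at 5.48, 4.42 and 3.82 FPKM in H1, and at 87.8, 88.2 and 80.2 FPKM in APLNR+ cells. It reached 190.8, 207.6 and 198.1 FPKM in CD31+CD34+ cells and measured 47.4, 55.0 and 53.0 FPKM in CD43+ cells. CDH11 was thus the highest of the 7 genes in all 3 differentiated populations, and its CD43+ libraries lay above every H1 library. The log2 changes were 3.96 ± 0.11, 1.21 ± 0.11 and -1.92 ± 0.11 (limma adjusted p 3.88e-11, 8.82e-07 and 3.12e-08). With quantile normalization the second of these was 0.95 and no longer reached 2-fold. Against H1 cells, CD43+ cells had an 11.3-fold higher mean FPKM, and the log2 change in FPKM + 1 was 3.25 ± 0.11 (limma adjusted p 9.23e-11).

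Markers of smooth muscle, pericytes and stroma had median log2 changes of 1.12, 1.30 and -0.80 at the 3 steps, in the direction of CDH11 at each and in that of CDH2 at the first and the last but not at the second. Of the 14 listed, 12 were tested, and 7 were upregulated at the first step, 7 at the second and 1 at the last, where 5 were downregulated. Over all genes 8.3%, 12.5% and 5.58% were upregulated at the 3 steps, and 8.79% were downregulated at the last. Their summed level ran from 259 to 297 FPKM in H1, 611 to 746 in APLNR+, 1016 to 1140 in CD31+CD34+ and 255 to 341 in CD43+ libraries. The pericyte receptor PDGFRB averaged 3.12, 11.4, 13.2 and 17.5 FPKM in the 4 populations in order, the actin-binding gene TAGLN 76.4, 466, 274 and 15.7 FPKM, and the matrix gene DCN stayed at or near 0. The 10 mesoderm markers summed to 22.4 to 29.7 FPKM in H1, 628 to 705 in APLNR+, 621 to 776 in CD31+CD34+ and 115 to 154 in CD43+ libraries, with KDR also in the endothelial list. APLNR, a sorted antigen's gene, averaged 383 and 402 FPKM in APLNR+ and CD31+CD34+ cells, and KDR 57.3 and 276.5 FPKM. Of 9 mesoderm markers tested, 1 was upregulated and 6 downregulated at the second step, against 12.5% and 17.1% of all genes. The 7 neural ectoderm markers summed to 48.6 to 57.7, 87.1 to 95.0, 62.9 to 67.4 and 10.1 to 12.3 FPKM, with SOX1 and NEUROG2 at 0 in the latter pair of populations, and the 9 endoderm markers to at most 78.2 FPKM. Most of the neural sum was NES, at means of 37.65, 58.35, 60.82 and 10.86 FPKM, and OTX2, at 12.9, 32.4, 4.18 and 0.106 FPKM. PAX6, SOX1, ZIC1 and NEUROG2 averaged at most 0.203 FPKM in any population. The part of the listed cell types in the CDH2 and CDH11 results was not tested.

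CDH5, the VE-cadherin of endothelial junctions, was near the floor of the assay before the HEP stage, with H1 libraries at 0.279, 0.148 and 0.0892 FPKM and APLNR+ libraries at 0.105, 0.0387 and 0.0332 FPKM, which overlapped. It then stood at 79.1, 108.4 and 102.9 FPKM in CD31+CD34+ cells, and at 26.5, 38.4 and 36.7 FPKM in CD43+ cells. The increase at the HEP stage was 6.52 ± 0.15 on the log2 scale (limma adjusted p 1.48e-11), the largest change of any of the 7 genes at the 3 consecutive steps. CDH5 was downregulated by -1.49 ± 0.15 from HEPs to HPCs (5.03e-06), and its level in HPCs remained far above H1 cells (4.88 ± 0.15, 4.72e-11). The shift between H1 and APLNR+ cells was -0.14 (95% interval -0.47 to 0.19, 0.442).

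Other endothelial genes were also called at these steps. Of 15 endothelial markers, CDH5 included, 13 were upregulated from APLNR+ to CD31+CD34+ cells, and 9 were downregulated and 2 upregulated from CD31+CD34+ to CD43+ cells. Over all genes 12.5% were upregulated at the former step, and 8.79% downregulated and 5.58% upregulated at the latter. PECAM1 and CD34, both in the list, encode the antigens used to sort CD31+CD34+ cells, so their calls are not independent of the sort. Without CDH5 the list summed to 54.2 to 59.2 FPKM in H1, 90.9 to 101.5 in APLNR+, 1689 to 1891 in CD31+CD34+ and 639 to 780 in CD43+ libraries. The 11 blood progenitor markers, with SPN of the sorted antigen CD43 among them, summed to 68.0 to 88.0 FPKM in CD31+CD34+ and 2463 to 3028 FPKM in CD43+ libraries. CD34 averaged 47.7 FPKM in CD31+CD34+ and 22.2 FPKM in CD43+ cells. The part of remaining endothelial cells in the CDH5 level of the CD43+ libraries was not tested.

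CDH6, the K-cadherin known from kidney and neural crest, was low throughout and peaked in mesoderm. Undifferentiated cells had 0.400, 0.460 and 0.501 FPKM and mesoderm 1.02, 1.17 and 1.12 FPKM, followed by 0.178, 0.0872 and 0.0961 FPKM in HEPs and 0.104, 0.0514 and 0.108 FPKM in HPCs. The APLNR+ libraries lay above all others, and the CD31+CD34+ and CD43+ libraries overlapped. On the log2(FPKM + 1) scale none of its changes reached 2-fold, at 0.53 ± 0.07, -0.91 ± 0.07 and -0.04 ± 0.07 (limma adjusted p 0.647 for the last). The last of these was 0.04 with quantile normalization. With a pseudocount of 0.1 in place of 1, CDH6 changed by 1.12 at the first step and -2.47 at the second, both past 2-fold. It reached 1 FPKM in APLNR+ libraries alone and passed the filter through them, so its peak there is given as a description.

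CTNND1, whose product binds the tails of classical cadherins, had the smallest ratio of highest to lowest population mean of the 7 genes, with means from 41.3 to 73.2 FPKM. Undifferentiated cells had 41.7, 42.5 and 39.9 FPKM and mesoderm 61.2, 61.6 and 58.8 FPKM, followed by 76.6, 74.2 and 68.9 FPKM in HEPs and 39.3, 45.0 and 43.6 FPKM in HPCs. H1 and CD43+ libraries overlapped, with APLNR+ and then CD31+CD34+ libraries above both. The log2 changes of 0.54, 0.27 and -0.77 (SE 0.08 each, limma adjusted p 0.000105, 0.00857 and 6.03e-06) were all under 2-fold and were not called. Between CD43+ and H1 cells the change was 0.04 with a 95% interval of -0.13 to 0.21 (0.655).

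To follow the exchange of one cadherin for another without any scaling between libraries, ratios were taken within each library. The CDH2 to CDH1 ratio, the measure of the classical cadherin switch, was 0.232 to 0.321 in H1, 3.41 to 4.60 in APLNR+, 3.61 to 5.31 in CD31+CD34+ and 3.02 to 3.40 in CD43+ libraries. CDH1 exceeded CDH2 in all 3 H1 libraries, and CDH2 exceeded CDH1 in all 9 libraries of differentiated cells. As log2 ratios of FPKM + 1, the means of the 4 populations in order were -1.77 ± 0.22, 1.95 ± 0.23, 1.99 ± 0.32 and 1.24 ± 0.11 (SD, n = 3). The difference was 3.72 at the first step (exact two-sided permutation p 0.1, the smallest that 3 against 3 libraries allow), 0.04 at the second (exact permutation p 0.7) and -0.75 at the last (exact permutation p 0.1). Although both genes declined after mesoderm, the ratio differed by less than the spread of the libraries from mesoderm to HEPs, and its sign there turned with the library left out (-0.08 to 0.23).

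The CDH5 to CDH2 ratio marked a second exchange. CDH5 was at most 0.0333 times CDH2 in H1 and APLNR+ libraries, 4.06 to 5.53 times CDH2 in CD31+CD34+ libraries and 5.63 to 7.57 times in CD43+ libraries. The mean log2 ratio was -3.14 ± 0.32, -5.60 ± 0.30, 2.12 ± 0.23 and 2.45 ± 0.21 in the 4 populations in order (SD, n = 3). It differed by 7.73 between APLNR+ and CD31+CD34+ cells (exact two-sided permutation p 0.1) and by 0.33 between CD31+CD34+ and CD43+ cells (exact permutation p 0.3), a step at which each of the genes was downregulated.

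**Figure D3:**
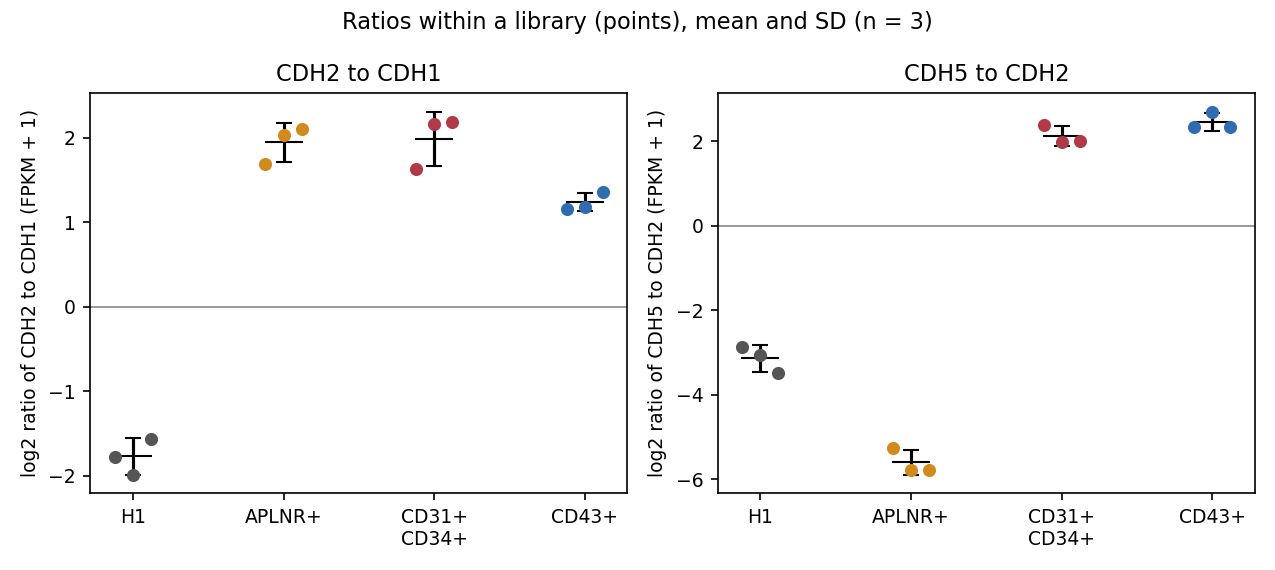
Log2 ratio of CDH2 to CDH1 (left) and of CDH5 to CDH2 (right), from FPKM + 1, in each of the 12 libraries, with the mean and SD of 3 libraries. The first ratio crosses 0 between H1 and APLNR+ cells, and the second between APLNR+ and CD31+CD34+ cells.

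The FPKM of 18 classical cadherins, the 6 members and the 12 other type I and type II genes, were summed in each library as a description. The sum was 114.5 to 116.9 FPKM in H1, 177 to 193 in APLNR+, 315 to 378 in CD31+CD34+ and 86.6 to 108.1 in CD43+ libraries. On the FPKM scale HEPs thus held the highest sum and HPCs the lowest. The FPKM of all entries added up to 568036 to 1576040 per library. These totals were 1284986 to 1478860 in H1 and 600630 to 831488 in CD43+ libraries. The cadherin sum was not rescaled to them, so its order between populations holds for the FPKM values as given. CDH3 and CDH1 contributed means of 50.7% ± 2.86 and 29.8% ± 2.72 of the sum in H1 cells (SD, n = 3). In APLNR+ cells CDH11 contributed 46.6% ± 2.61 and CDH2 27.7% ± 3.99, with 10.5% ± 0.803 left to CDH3 and 6.74% ± 0.0974 to CDH1. CDH11 and CDH5 together made up most of the sum later on, at 56.9% ± 3.11 and 27.5% ± 2.09 in CD31+CD34+ cells and 52.0% ± 2.41 and 33.7% ± 2.65 in CD43+ cells. CDH1 held 1.32% in HEPs and 1.68% in HPCs, and CDH2 6.19% and 5.36%. The 12 other genes held 3.62% to 7.86% on average.

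**Figure D4:**
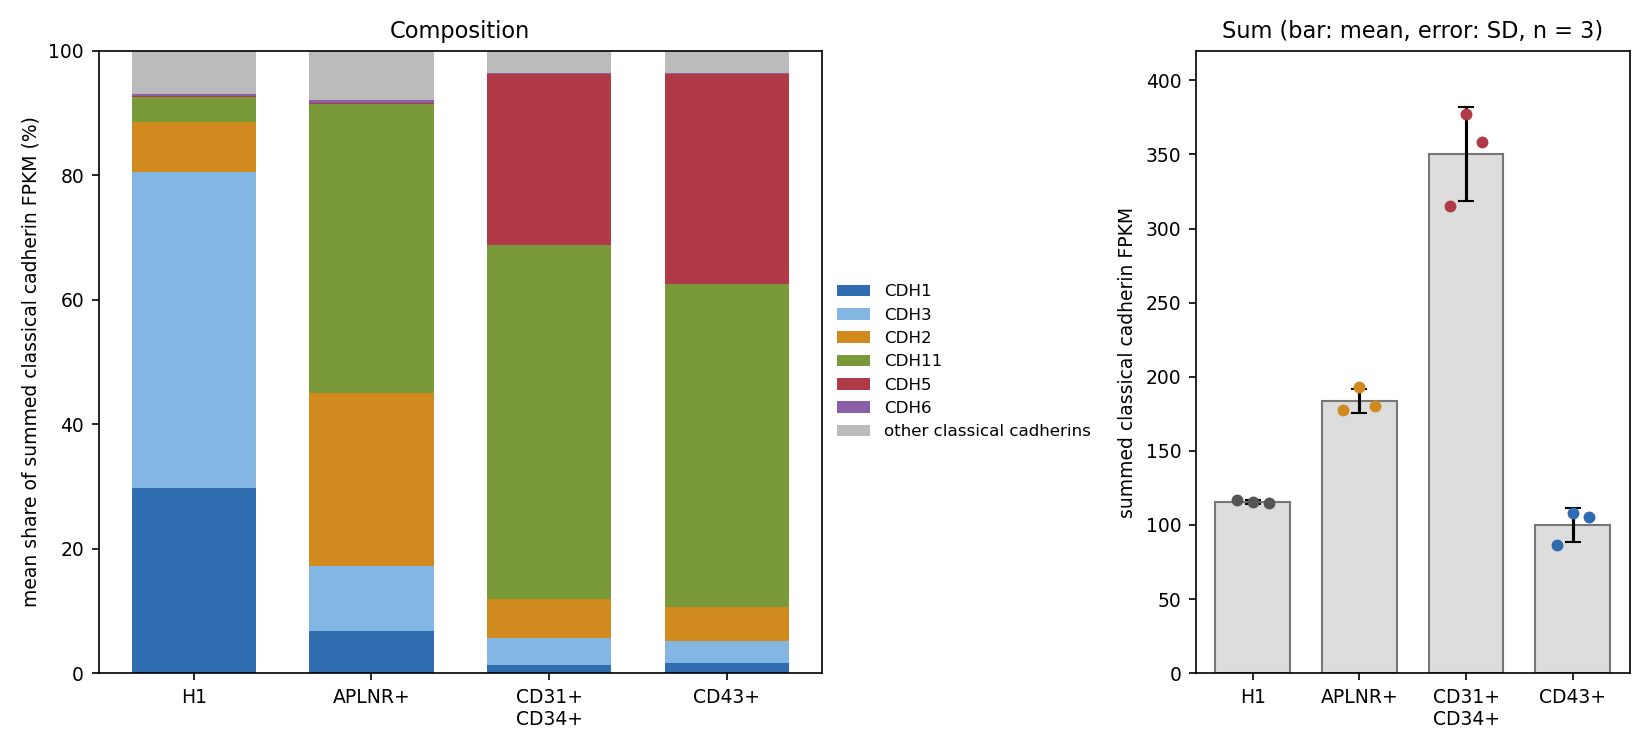
Left, mean share (%) of each cadherin in the summed FPKM of 18 classical cadherins in each population. Right, the sum itself in FPKM, with bars for the mean, error bars for the SD and points for the 3 libraries. CDH3 and CDH1 fill most of the H1 column, CDH11 and CDH2 most of the APLNR+ column, and CDH11 and CDH5 most of the later columns, while the sum is highest in CD31+CD34+ cells.

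The proportion of CTNND1 to this sum was lowest in HEPs. It was 0.348 to 0.369 times the cadherin sum in H1 libraries, 0.320 to 0.345 times in APLNR+, 0.192 to 0.243 times in CD31+CD34+ and 0.415 to 0.454 times in CD43+ libraries, and no populations overlapped. Ranked within populations by FPKM, H1 cells had the order CDH3, CTNND1, CDH1, CDH2, CDH11, CDH6 and CDH5. APLNR+ cells had CDH11, CTNND1, CDH2, CDH3, CDH1, CDH6 and CDH5. In CD31+CD34+ cells the order was CDH11, CDH5, CTNND1, CDH2, CDH3, CDH1 and CDH6, and in CD43+ cells CDH11, CTNND1, CDH5, CDH2, CDH3, CDH1 and CDH6. The libraries of neighbours in these orders overlapped only for CDH2 and CDH3 in CD31+CD34+ cells.

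The members' patterns across the 12 libraries are described here by Pearson's r of log2(FPKM + 1), without a test, since the libraries fall into 4 populations. CDH1 and CDH3 were the most alike of the 21 pairs (r = 0.96), followed by CDH11 and CTNND1 (r = 0.817), while CDH5 ran opposite to CDH6 (r = -0.854) and to CDH1 (r = -0.818). Among all genes reaching a mean of 5 FPKM in a population, those most like CDH1 were AP1M2, a subunit of the epithelial clathrin adaptor, and ESRP1, an epithelial splicing regulator also in the epithelial marker list (r = 0.997 and 0.996), with AL591742.2 at 0.995. CDH3 was most like CLDN6, a claudin of tight junctions (r = 0.997), EPHA1 (r = 0.995) and RIMS3 (r = 0.995), and CDH5 was most like THSD1, PTPRB and PLVAP (r = 0.999 each). CDH2 was most like NIPA1 and SAMD8 (r = 0.994 each) and ENTPD4 (r = 0.983), CDH6 most like STC1 (r = 0.995), CEP55 (r = 0.99) and CUZD1 (r = 0.988), and CDH11 most like the homeobox gene MSX1 (r = 0.996), NANOS3 and the fibronectin receptor subunit ITGA5 (r = 0.995 each). CTNND1 was most like MEIS3 (r = 0.993), DUSP4 and CHST3 (r = 0.988 each), although MEIS3 spanned 4.39 to 61.0 FPKM in population means.

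The catenins link the cadherin tails to actin. Of 12 catenin and p120-related genes, CTNND1 included, 0 were called at the first step, 2 were upregulated and 2 downregulated at the second, and 0 upregulated and 3 downregulated at the last, with median log2 changes of -0.30, 0.30 and -0.54. Over all genes tested 8.3% and 7.62% were called up and down at the first step, 12.5% and 17.1% at the second, and 5.58% and 8.79% at the last, so nothing particular to the catenins is read from these counts. JUP, which encodes plakoglobin, averaged 13.7 ± 1.21, 21.7 ± 1.82, 60.0 ± 2.72 and 20.3 ± 2.56 FPKM in the 4 populations in order (SD, n = 3), and was called at the second step (1.43 ± 0.11, limma adjusted p 1.71e-07) and the last (-1.52 ± 0.11, 1.89e-07). The levels of CTNNB1 (beta-catenin) averaged 194, 179, 220 and 141 FPKM and those of CTNNA1 (alpha-catenin) 128, 106, 165 and 83.1 FPKM, and neither was called at any step, with CTNNA1 at -0.98 in the last. These latter genes were picked after their values had been seen.

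CTNNA2, the neural alpha-catenin, averaged 9.71, 5.77, 1.97 and 1.17 FPKM and was downregulated at the second step (-1.18 ± 0.20, limma adjusted p 0.00019). CTNNAL1, an alpha-catenin-like gene, averaged 31.9, 28.5, 4.44 and 3.12 FPKM and was also downregulated there (-2.44 ± 0.13, 1.45e-08). CTNND2, the neural relative of p120-catenin, was downregulated at the last step from a mean of 3.74 to 0.580 FPKM (-1.61 ± 0.16, 4.56e-06). CTNNBL1, whose product is known from the splicing machinery despite its name, was upregulated at the second step from 15.9 to 34.5 FPKM (1.07 ± 0.15, 3.24e-05).

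**Figure D5:**
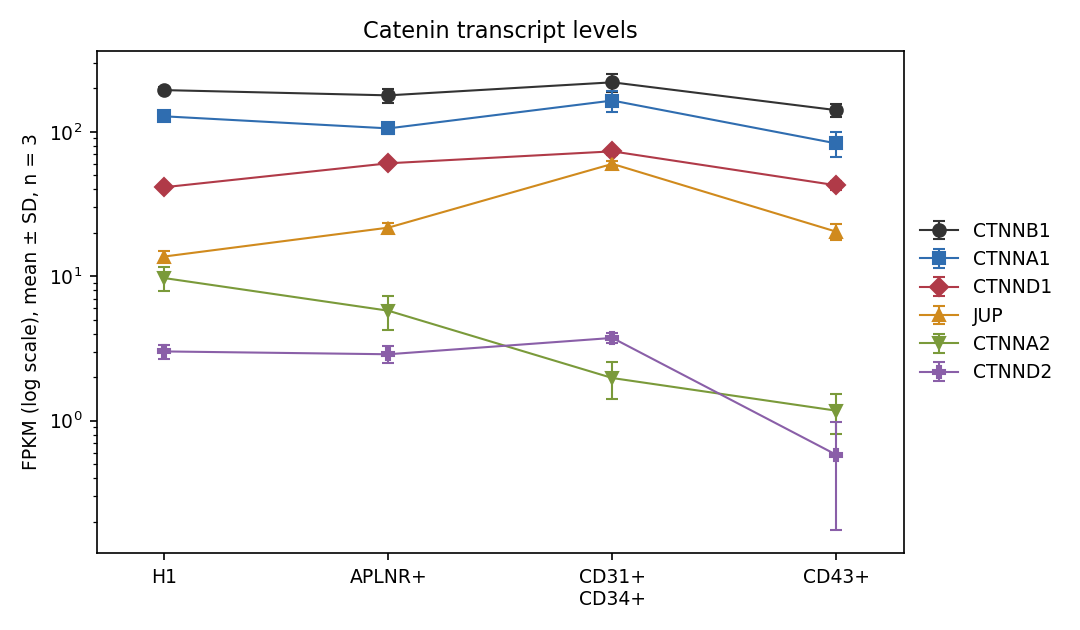
Mean FPKM (log axis) of 6 catenin genes in the 4 populations, with the SD of 3 libraries. CTNNB1 stays between 141 and 220 FPKM and CTNND1 between 41.3 and 73.2 FPKM, JUP peaks in CD31+CD34+ cells at 60.0 FPKM, and CTNNA2 and CTNND2 end at 1.17 and 0.580 FPKM in CD43+ cells.

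Of the 12 other classical cadherins only 4 passed the filter on low values (CDH4, CDH8, CDH22 and CDH24), and 1 was upregulated at the first step, 1 downregulated at the second and 1 downregulated at the last. The shares over all genes were 8.3% upregulated at the first step, and 17.1% and 8.79% downregulated at the second and last. CDH22 averaged 0.0386, 1.39, 0.187 and 0.0369 FPKM in the 4 populations in order, and accounts for the calls at the first step (1.20) and the second (-1.01). Like CDH6 it reached 1 FPKM in APLNR+ libraries alone and passed the filter through them, so its peak there is given as a description. CDH24 averaged 3.01, 5.41, 7.76 and 1.60 FPKM in order, with a downregulation at the last step (-1.76 ± 0.10, 2.54e-08).

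The cadherin superfamily also holds the protocadherins, the FAT and Dachsous cadherins and other non-classical members. Of 30 such genes 22 were tested, and 7 were upregulated and 1 downregulated at the first step, 4 and 6 at the second, and 1 and 10 at the last, with median log2 changes of 0.32, 0.44 and -0.85. The shares over all genes were 8.3% and 7.62%, 12.5% and 17.1%, and 5.58% and 8.79%, with medians of -0.12, -0.01 and 0.00. The protocadherin PCDH10 went from a mean of 0.721 FPKM in H1 to 33.1 in APLNR+ cells (4.30 ± 0.12, limma adjusted p 3.88e-11), then to 12.2 and 4.67 FPKM. PCDH17 averaged 0.227, 10.1, 18.2 and 3.21 FPKM, upregulated at the first step (3.17 ± 0.13, 1.67e-09) and downregulated at the last (-2.20 ± 0.13, 6.15e-08). PCDH1 showed an alternating course of 31.9, 5.68, 14.3 and 1.69 FPKM, called at each of the 3 steps (-2.30, 1.20 and -2.51).

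The membrane-anchored T-cadherin CDH13 averaged 1.22, 6.92, 47.0 and 10.6 FPKM and the large atypical cadherin DCHS1 1.54, 7.63, 45.9 and 14.5 FPKM, so that both were highest in HEPs, as CDH11 and CDH5 were. Their increases at the HEP stage were 2.57 ± 0.17 (limma adjusted p 5.2e-08) and 2.44 ± 0.11 (2.74e-09). FAT3, another large atypical cadherin, averaged 16.5, 21.7, 1.60 and 0.478 FPKM, with a downregulation of -3.11 ± 0.15 at the HEP stage (4.56e-09), where CDHR3 was also downregulated from 4.26 to 0.608 FPKM (-1.71 ± 0.13, 2.36e-07). The 1 gene of this list called upwards from HEPs to HPCs was CDH26, with means of 0.392 and 2.85 FPKM. It reached 1 FPKM in CD43+ libraries alone and passed the filter through them, so this too is a description.

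Desmosomes, the junctions built from desmosomal cadherins and plakins, were represented by 7 tested genes of 13. At the 3 steps 0 were upregulated and 0 downregulated, then 1 and 3, then 0 and 4, with medians of 0.16, -0.95 and -1.01. Over all genes the shares were 12.5% and 17.1% at the second step and 5.58% and 8.79% at the last. The desmosomal cadherin gene DSG2 averaged 15.5, 17.4, 5.16 and 2.06 FPKM and was downregulated at the second step (-1.58 ± 0.09, limma adjusted p 2.37e-08) and the last (-1.01 ± 0.09, 2.13e-06). DSC2 was downregulated at the second step from 10.9 to 3.47 FPKM (-1.42 ± 0.10, 1.47e-07), and the plakophilin gene PKP3 at the last step from 3.63 to 0.880 FPKM (-1.29 ± 0.12, 2.16e-06). The 0 of 7 called at the first step stand beside 8.3% upregulated and 7.62% downregulated over all genes, and a difference from CDH1 and CDH3, both downregulated at that step, was not tested. JUP, shared by both junction types, was the 1 desmosomal gene upregulated at the second step.

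Among nectins and actin linkers of the adherens junction 16 of 17 genes were tested, with 0 upregulated and 2 downregulated at the first step, 4 and 3 at the second, and 0 and 6 at the last (medians 0.06, -0.14 and -0.81). Beside these stand 8.3% and 7.62%, 12.5% and 17.1%, and 5.58% and 8.79% of all genes. NECTIN2, an immunoglobulin-type adhesion gene, averaged 40.9, 58.8, 180.5 and 76.8 FPKM. It rose at the second step, where the libraries did not overlap, and was downregulated at the last step (-1.23 ± 0.10, limma adjusted p 7.76e-07). Its relatives NECTIN1 (13.3, 4.39, 9.41 and 3.93 FPKM) and NECTIN3 (22.5, 15.5, 4.24 and 2.54 FPKM) were downregulated at the first (-1.41 ± 0.15, 7.67e-06) and second step (-1.69 ± 0.20, 9.68e-06). At the HEP stage the actin regulator VASP was upregulated from 39.3 to 178 FPKM (2.15 ± 0.14, 6.77e-08). IQGAP1 was downregulated from 38.6 to 14.8 FPKM at the HEP stage (-1.31 ± 0.18, 3.32e-05), and AJUBA from 10.3 to 2.30 FPKM at the last step (-1.77 ± 0.11, 8.27e-08).

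The list of genes that act on cadherins at the membrane, the proteases, phosphatases, kinases and trafficking factors, had 24 entries, of which 23 were found and 20 tested. At the first step 2 were upregulated and 0 downregulated, at the second 4 and 2, and at the last 0 and 1, with medians of 0.12, 0.34 and -0.36. The corresponding shares of all genes were 8.3% and 7.62%, 12.5% and 17.1%, and 5.58% and 8.79%. Nothing particular to this list is read from its counts. The receptor phosphatase gene PTPRM went from 2.44 to 20.3 FPKM at the first step (2.63 ± 0.21, limma adjusted p 4.55e-07) and the kinase gene SRC from 4.61 to 32.1 FPKM (2.56 ± 0.11, 2.36e-09). PTPRB, whose product is the vascular endothelial phosphatase that associates with VE-cadherin, went from 0.124 to 12.8 FPKM with CDH5 at the HEP stage (3.61 ± 0.11, 1.2e-10), and was at 6.93 FPKM in HPCs (-0.79 ± 0.11, 8.76e-05, under 2-fold). The metalloprotease gene ADAM15 went from 6.29 to 57.0 FPKM there (2.99 ± 0.12, 8.5e-10), while the kinase gene FER fell from 19.9 to 4.51 FPKM (-1.94 ± 0.17, 7.46e-07) and the phosphatase gene PTPN11 from 43.1 to 17.0 FPKM (-1.29 ± 0.11, 7.64e-07). PTPRK was the 1 gene called at the last step, from 11.7 to 4.33 FPKM (-1.31 ± 0.23, 0.000496).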

How the data were processed

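RNA-seq libraries of 12 samples were analysed, grouped by the replicate-numbered sample titles. Total RNA was extracted with Trizol and prepared with an Illumina TruSeq kit per the labels. The authors deposited 1 table of FPKM values, 1 column per library. The submitters' processing notes name BWA, Bowtie, RSEM and hg19 without roles or versions, and scaling between libraries is not given in the sources used here. Of 58366 lines below the header, 1 of text was left out. For 345 symbols on several lines, CDH3 among them, only the line of highest mean entered. FPKM are not counts, so no count model was run, and whether a difference is detectable is limited by 3 libraries per population.

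Values were transformed as log2(FPKM + 1), and the 14840 genes reaching 1 FPKM in at least 3 libraries entered limma 3.58.1 in R 4.3.3 (lmFit, contrasts.fit, eBayes with trend; all 12 libraries, no covariate). Benjamini-Hochberg adjustment was over the genes of each comparison, and each adjusted p in the text is from this model. Genes were called at an adjusted p under 0.05 and 2-fold. The fit was tested on simulated data. Ratios were compared by exact permutation, and no list was tested as a set. Relative depth was the most frequent ratio of low values to those of CD43+ replicate 3.

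The members and gene lists were chosen with earlier results of these data known. Named were the members, in each list up to 2 largest rises and 2 largest falls per consecutive step among called genes, and the 3 genes most correlated with each member. The values of 1 gene that this rule names are not reported here. Sequences are from GENCODE release 29 on GRCh38, not the build of the values. The permutation tests used scipy 1.17.1, the figures matplotlib 3.10.9 and the tables pandas 2.3.3 and numpy 2.4.6, in Python 3.11.15. Alternatives were a pseudocount of 0.1, no filter, no minimum change, a block for the replicate number, quantile normalization, upper-quartile or median-ratio scaling, the compared populations alone, eBayes without trend, replicates 2 and 3 alone, symbols on several lines left out, and each library left out in turn. Deviations from the population means correlated between same-numbered libraries at -0.02 to 0.43. All 3 pairs were over 0.1 between H1 and CD43+ and between CD31+CD34+ and CD43+ cells. Between APLNR+ and H1 or CD31+CD34+ cells not all 3 were. The main fit and the permutation tests treated all libraries as unpaired, and the replicate number entered only the block alternative. Adding the CDH3 lines together was chosen after seeing the data.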

Additional observations from a re-analysis of the deposited data

How the results depend on the processing

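Of 490 recomputed changes of the 7 genes, 475 kept their direction and their side of the threshold, 3 fell short of it (CDH2, CDH11 and CDH1, given with their values above), 11 passed it and 1 reversed, CDH6 from CD31+CD34+ to CD43+ cells, at 0.04 with quantile normalization. Those that passed it were CDH6 with a pseudocount of 0.1 (1.12, -2.47 and, in CD43+ against H1 cells, -1.57) and, without a minimum change, CDH2, CDH3, CDH6 and CTNND1. The 490 hold no value of CDH6 where an APLNR+ library was left out or replicates 2 and 3 were used alone, since it then missed the filter. They also hold none of CDH3 where symbols on several lines were left out. Without a minimum change 8594, 10948, 7961 and 11076 genes were called in the 4 comparisons in order, beside 2363, 4400, 2133 and 5501, and 4 members were upregulated at the first step, 4 downregulated at the second and 4 lower in CD43+ than in H1 cells. With a pseudocount of 0.1, 3632 genes were called at the first step and 3605 at the last, and the CDH5 to CDH2 log2 ratio differed by -3.17 at the first step and 10.51 at the second. With symbols on several lines left out, and CDH3 with them, 1 member was downregulated at the first step and 1 lower in CD43+ than in H1 cells. Quantile normalization left 1 member upregulated at the second step and moved the median change of all genes in CD43+ against H1 cells from -0.10 to 0.02. Leaving out 1 library in turn left 1 to 2 members downregulated at the second step. Across the same omissions the CDH2 to CDH1 log2 ratio differed by -0.08 to 0.23 at that step, with -0.08 without APLNR+ replicate 1 and -0.04 and -0.05 without CD31+CD34+ replicates 2 and 3. The replicate block gave 2369, 4410, 2140 and 5506 called genes and altered no call of a member, in the pairs of populations whose same-numbered libraries deviated together (CD43+ with H1 and with CD31+CD34+) and in the others. Over all populations 12 of 18 same-numbered pairs correlated above 0.1, and in 23 of 36 comparisons a library was closest to its own number, a hint from the data and not from the design. Where a call moved, the cause was not tested. Levels under about 1 FPKM, such as CDH6 and early CDH5, are the least precise, most of all in replicate 1.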
